A study of Mus musculus with 30 samples.

Results

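A group of 5 genes was followed through sorted brain cells of amyloid-forming mice: Myo1e, Baiap2l2, Apbb2, Etl4 and Faxc. They were chosen by their measured values out of 36528 gene identifiers: the rise of their RNA in PS2APP over non-Tg cells was larger in myeloid than in neuron libraries. The myeloid and neuron differences of these genes are therefore given below as a description with no test. The astrocyte libraries took no part in that choice, and the test of PS2APP against non-Tg was made there.

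RNA was sequenced from 30 libraries in 6 groups of 5: PS2APP and non-Tg Cd11b+ myeloid cells, PS2APP and non-Tg Gfap+ astrocytes, and PS2APP and non-Tg NeuN+ neurons. PS2APP mice carry human presenilin 2 and human amyloid precursor protein (APP) transgenes and deposit amyloid in the brain; non-Tg animals were their littermates without the transgenes, and both were 11.5 months old. The sources used here do not give the promoters of the transgenes, nor whether a library held the cells of 1 animal or of several. No label ties libraries of different sorts to 1 animal, so each p-value measures the spread between these libraries.

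Actin filaments push and pull on the plasma membrane, and proteins that bind both shape the cups and protrusions with which phagocytes reach and take up material. Myo1e encodes a long-tailed class I myosin, a single-headed motor that tethers membrane to actin in endocytosis and in the phagocytic cup. Baiap2l2 encodes an inverse BAR (I-BAR) domain protein, a family that binds and bends membrane at actin-rich protrusions; in mice it is needed in the stereocilia of hair cells. Apbb2 encodes an adaptor of the Fe65 family, whose phosphotyrosine-binding domains hold the cytoplasmic tail of APP. Etl4, also known as sickle tail, encodes a coiled-coil scaffold needed for intervertebral discs in mice and is a paralog of Srcin1, an inhibitor of Src kinase. Faxc is named after the fly gene failed axon connections, and its protein is related to the metaxins of the mitochondrial outer membrane.

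The 5 genes lie on 5 chromosomes. In GRCm38.p6, Myo1e spans chr9:70207350-70400067, Baiap2l2 chr15:79258195-79285556, Apbb2 chr5:66298725-66619064, Etl4 chr2:19910207-20810535 and Faxc chr4:21930906-22001461. Because the genes were higher in the same sort, the windows from 250 bases before to 50 bases after an annotated start were read from RefSeq on GRCm38.p6, and 7 windows were found for 4 of the 5 genes. Of the windows found for each gene, the one farthest upstream is printed, 5′ to 3′ on the strand of the gene. Motif matches on either strand are in capitals. The printed Etl4 and Faxc windows lie within the annotated spans of their genes and do not reach the start of those spans. The printed Apbb2 window also lies almost wholly within the span of its gene.
Myo1e, chr9:70207100-70207399, plus strand: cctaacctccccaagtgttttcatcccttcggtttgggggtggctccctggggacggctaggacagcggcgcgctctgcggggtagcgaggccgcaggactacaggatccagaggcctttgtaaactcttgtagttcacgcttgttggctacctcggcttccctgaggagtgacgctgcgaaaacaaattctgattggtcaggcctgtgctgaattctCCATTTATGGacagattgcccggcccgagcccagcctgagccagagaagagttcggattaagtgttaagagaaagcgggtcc
Apbb2, chr5:66618768-66619067, minus strand: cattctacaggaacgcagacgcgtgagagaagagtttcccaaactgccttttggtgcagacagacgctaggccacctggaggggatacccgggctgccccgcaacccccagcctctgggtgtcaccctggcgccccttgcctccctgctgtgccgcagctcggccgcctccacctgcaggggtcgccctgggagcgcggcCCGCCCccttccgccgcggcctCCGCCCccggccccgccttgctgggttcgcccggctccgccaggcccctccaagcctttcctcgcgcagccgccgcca
Etl4, chr2:20289663-20289962, plus strand: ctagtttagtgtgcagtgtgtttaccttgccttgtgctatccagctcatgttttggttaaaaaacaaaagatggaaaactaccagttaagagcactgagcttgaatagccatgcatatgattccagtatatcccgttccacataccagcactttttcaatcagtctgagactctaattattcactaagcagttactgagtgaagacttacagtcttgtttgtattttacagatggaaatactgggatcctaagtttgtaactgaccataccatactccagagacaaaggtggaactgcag
Faxc, chr4:21931076-21931375, plus strand: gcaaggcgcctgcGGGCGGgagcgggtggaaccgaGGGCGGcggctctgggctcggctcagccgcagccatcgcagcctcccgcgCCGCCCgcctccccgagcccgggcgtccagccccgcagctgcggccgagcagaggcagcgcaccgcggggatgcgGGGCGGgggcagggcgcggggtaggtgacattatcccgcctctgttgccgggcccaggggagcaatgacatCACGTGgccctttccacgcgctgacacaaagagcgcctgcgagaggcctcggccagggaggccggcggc
The motifs searched were the TATA box TATAAA, the E-box CACGTG, the AP-1 site TGANTCA, the ETS core GGAAGT, the GC box GGGCGG and the CArG box bound by serum response factor. No motif was matched in all 4 printed windows. The CArG box was matched in the Myo1e window alone, at base 219, and occurs in 1.63% of 32851 promoter windows of the genome. GGGCGG was matched 2 times in the printed Apbb2 window, 3 times in the other window of that gene and 4 times in the Faxc window, and occurs in 35.7% of all windows. CACGTG was matched in the Faxc window and in 1 of the Etl4 windows not printed, and occurs in 7.15%. TATAAA was matched in that same Etl4 window, and occurs in 13.6%. These matches are descriptions of the sequence and were not tied to the measured levels.

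The libraries held 2015535 to 6749681 counts, with 2473581 ± 413655 in the PS2APP myeloid group and 4704683 ± 1051807 in the non-Tg myeloid group (n = 5 each, SD). Levels are given as CPM, counts scaled to the size of the library. Itgam, which encodes Cd11b, averaged 1099 and 1537 CPM in PS2APP and non-Tg myeloid libraries and at most 13.3 CPM in any other group. In each sort 1 PS2APP library stood farthest out on the first principal component, namely PS2APP myeloid replicate 4, PS2APP astrocyte replicate 3 and PS2APP neuron replicate 5. These 3 libraries were also the ones at or near non-Tg values for Arhgap6, a gene named after its values were seen, which separated the remaining libraries by genotype in each sort. In the myeloid sort it was 10.1 CPM in PS2APP replicate 4 and between 329 and 588 CPM in PS2APP replicates 1, 2, 3 and 5, against 3.66 to 9.28 CPM in non-Tg ones. In astrocytes it was 4.07 CPM in PS2APP replicate 3 and 83.0 to 242 CPM in the other PS2APP libraries, against 7.48 to 16.1 CPM in non-Tg ones. In neurons it was 51.0 CPM in PS2APP replicate 5 and 239 to 755 CPM in the other PS2APP libraries, against 41.2 to 53.6 CPM in non-Tg ones. The fold changes of the 5 genes in each sort are given below with and without that library.

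All 5 genes were higher in every PS2APP myeloid library than in any non-Tg myeloid library. The fold change between the groups was largest for Baiap2l2, at about 49.0-fold in edgeR's fit. Etl4 (6.62-fold), Faxc (5.33-fold), Myo1e (4.17-fold) and Apbb2 (2.32-fold) followed. This order is not that of the gap between the nearest libraries, which for Faxc were at 7.45 CPM in PS2APP and 4.92 CPM in non-Tg. In the same fit 1.86% of 12274 genes were higher past an adjusted p of 0.05, and 1.49% were higher with no overlap of the groups; the 5 genes are among both by the way they were chosen. In bulk RNA of a sort, fewer cells of a type and less RNA per cell cannot be told apart.

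**Figure D1:**
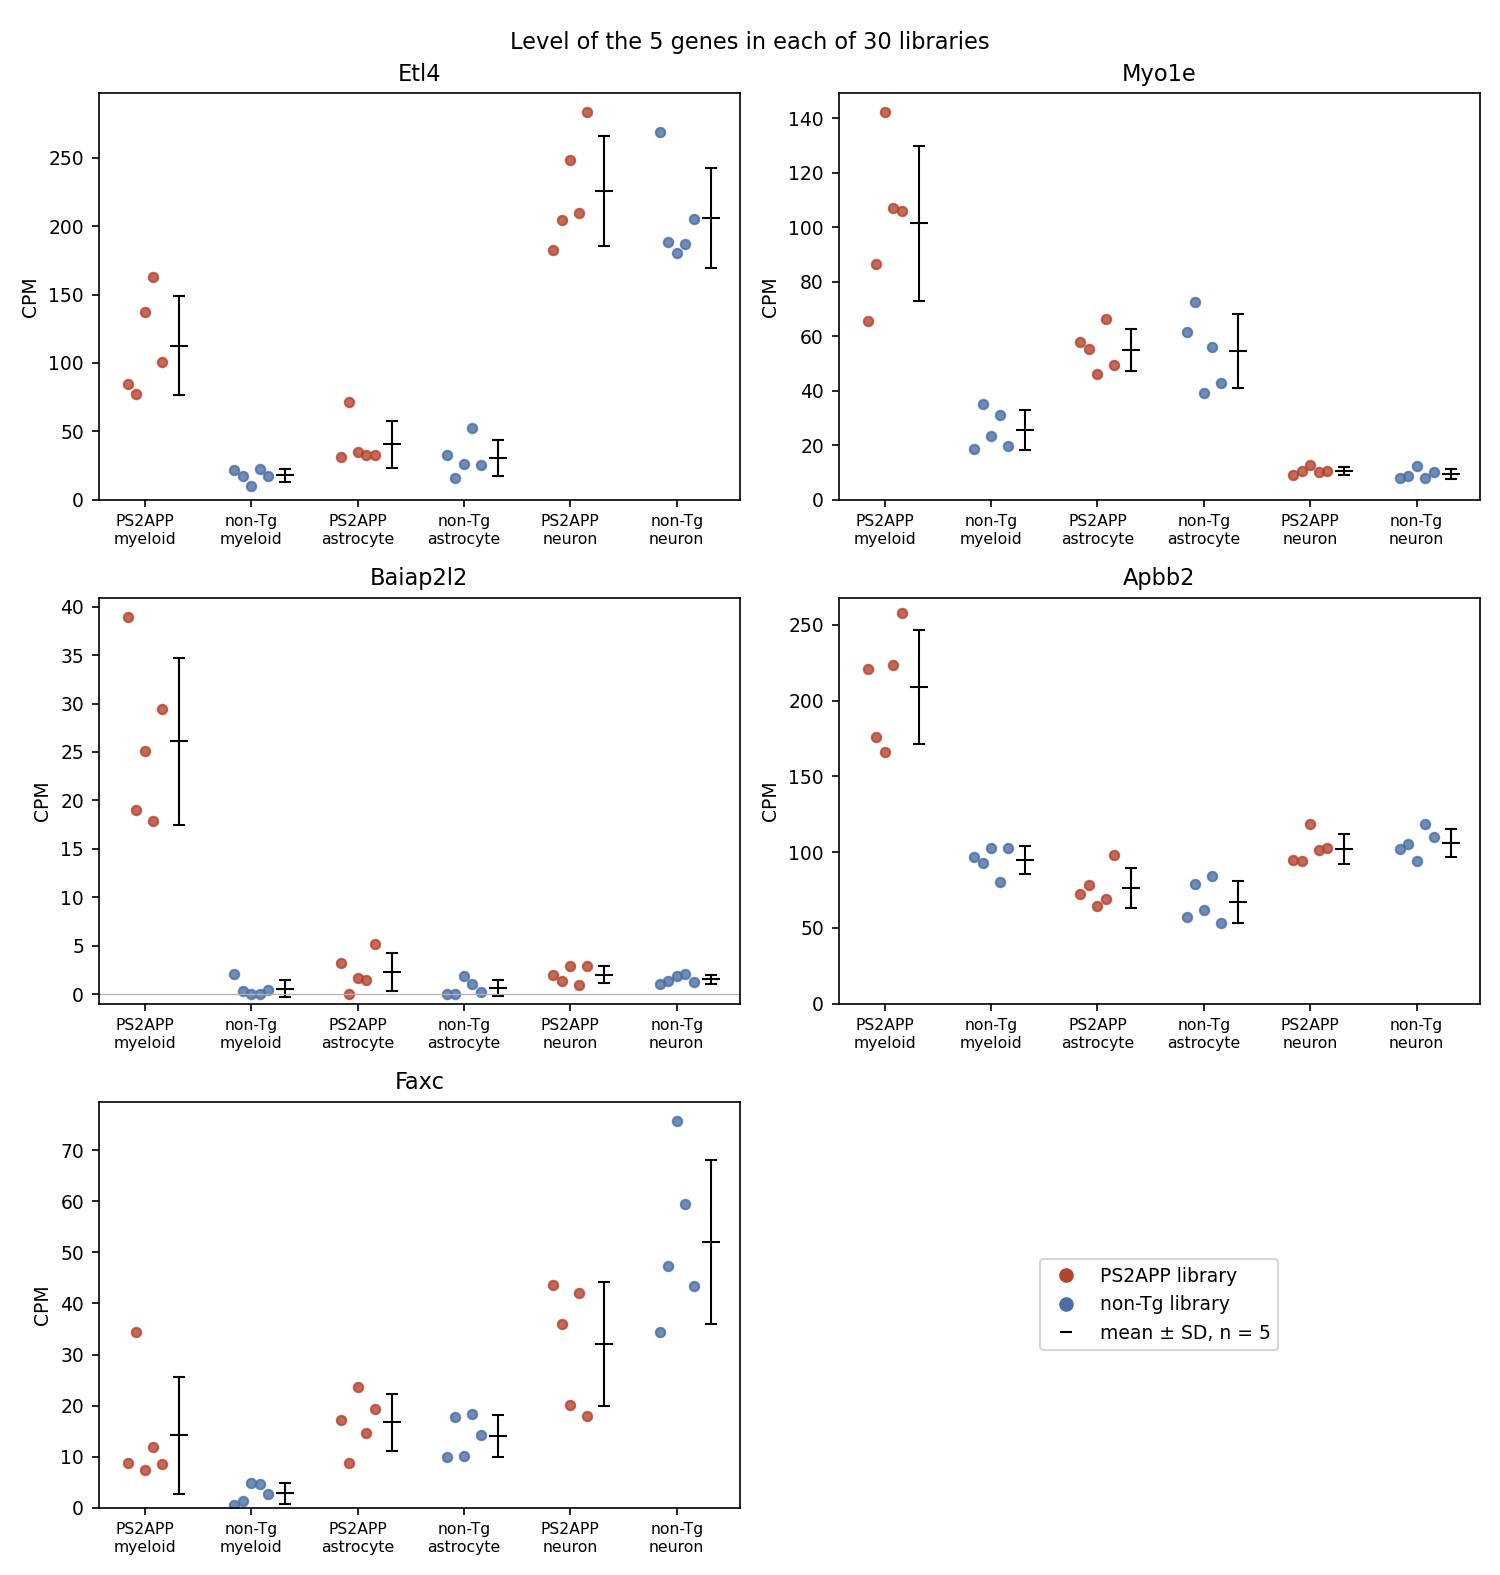
CPM (vertical axis, linear) of each gene in each of 30 libraries, one panel a gene and one point a library, with the mean and SD of 5 libraries beside the points. PS2APP myeloid points lie above all non-Tg myeloid points in each panel, while astrocyte and neuron points of the 2 genotypes overlap.

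Myo1e, the membrane-tethering motor, was measured at 65.6, 86.5, 142, 107 and 106 CPM in PS2APP myeloid libraries, against 18.8, 35.2, 23.4, 31.2 and 19.6 CPM in non-Tg myeloid libraries. Even the lowest PS2APP library, replicate 1, lay well above the highest non-Tg one. Its log2 fold change was 2.06 ± 0.23 (SE), and 2.02 without PS2APP myeloid replicate 4. Leaving out any 1 of the 10 myeloid libraries gave 1.92 to 2.19. PS2APP myeloid libraries overlapped with the astrocyte libraries, which came next in level at 54.9 ± 7.80 and 54.5 ± 13.6 CPM (SD, n = 5) in PS2APP and non-Tg mice. Neuron libraries held the least, with 10.6 ± 1.36 CPM in PS2APP and 9.39 ± 1.87 CPM in non-Tg mice.

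Baiap2l2, the I-BAR protein, was measured at 39.0, 19.1, 25.1, 17.9 and 29.4 CPM in PS2APP myeloid libraries, against 2.06, 0.357, 0, 0 and 0.435 CPM in non-Tg myeloid libraries. It was close to undetected without the transgenes: the 5 non-Tg myeloid libraries held 12 reads together, 8 of them in replicate 1, against 305 reads in the 5 PS2APP libraries. A count of 3, the limit that a count of 0 allows, corresponded to 0.457 to 0.869 CPM in non-Tg myeloid libraries, for counting error alone. The log2 fold change was 5.62 ± 0.64 (SE), 5.72 without PS2APP myeloid replicate 4 and 6.88 without non-Tg myeloid replicate 1. Baiap2l2 was also low in the other sorts, with 2.01 ± 0.871 CPM in PS2APP and 1.53 ± 0.443 CPM in non-Tg neurons. The PS2APP myeloid libraries lay apart from the next group, PS2APP astrocytes, whose highest library held 5.13 CPM.

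Apbb2, the APP-binding adaptor, was measured at 221, 176, 166, 223 and 258 CPM in PS2APP myeloid libraries, against 96.6, 92.7, 103, 80.0 and 103 CPM in non-Tg myeloid libraries. It was the most evenly expressed of the 5: outside PS2APP myeloid cells its group means lay between 67.2 CPM in non-Tg astrocytes and 106 CPM in non-Tg neurons, and each group overlapped with the next. PS2APP myeloid libraries alone stood above that band, with no overlap. The log2 fold change was 1.22 ± 0.16 (SE), and 1.17 without PS2APP myeloid replicate 4. In neurons Apbb2 averaged 102 ± 9.74 CPM in PS2APP and 106 ± 9.01 CPM in non-Tg mice.

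Etl4, the sickle tail scaffold, was measured at 84.7, 77.2, 138, 163 and 101 CPM in PS2APP myeloid libraries, against 21.8, 17.5, 10.4, 22.4 and 17.6 CPM in non-Tg myeloid libraries. The highest value was in replicate 4, the library that stood apart, and the log2 fold change was 2.73 ± 0.25 (SE) with it and 2.53 without it. Etl4 was foremost a neuronal RNA here. Neuron libraries held 182, 204, 248, 210 and 283 CPM in PS2APP and 269, 188, 180, 187 and 205 CPM in non-Tg mice, and both neuron groups lay apart from PS2APP myeloid cells. PS2APP myeloid cells had the third highest mean of the 6 groups, and non-Tg myeloid cells the lowest.

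Faxc, the metaxin relative, was measured at 8.75, 34.5, 7.45, 11.9 and 8.51 CPM in PS2APP myeloid libraries, against 0.514, 1.25, 4.92, 4.72 and 2.61 CPM in non-Tg myeloid libraries. PS2APP replicate 2 lay within the range of the neuron libraries, and the other 4 libraries averaged 9.16 ± 1.93 CPM (SD, n = 4). The log2 fold change was 2.41 ± 0.60 (SE), 2.46 without PS2APP myeloid replicate 4 and 1.78 ± 0.61 without PS2APP myeloid replicate 2. Neuron libraries held the most, at 43.6, 36.0, 20.2, 42.1 and 18 CPM in PS2APP and 34.4, 47.4, 75.8, 59.4 and 43.4 CPM in non-Tg mice. The neuron groups overlapped, and the log2 fold change there was negative, at -0.71 ± 0.27 (SE) and -0.56 without PS2APP neuron replicate 5, and for Apbb2 it was -0.067 ± 0.11; Myo1e, Baiap2l2 and Etl4 were positive in both sorts.

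The PS2APP myeloid library with the highest value was a different one for each of the 5 genes: replicate 3 for Myo1e, 1 for Baiap2l2, 5 for Apbb2, 4 for Etl4 and 2 for Faxc. The highest values were thus spread over all 5 PS2APP libraries. With 1 myeloid library left out in turn, the log2 fold change of Faxc lay between 1.78 and 2.70, the lowest being without PS2APP myeloid replicate 2. Faxc was no longer past the threshold without PS2APP myeloid replicate 2 or non-Tg myeloid replicate 2, 4 or 5. Myo1e, Baiap2l2, Apbb2 and Etl4 stayed past it in each of these fits, which are a description, as the genes were chosen on these values.

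Compared per transcript length, as the authors' size-factor-adjusted RPKM, Apbb2 was the most abundant of the 5 in PS2APP myeloid libraries, at 7.01 ± 1.32, against 2.91 ± 0.322 in the non-Tg ones (n = 5 each, SD). Myo1e followed at 4.78 ± 1.29 against 1.10 ± 0.306, and Etl4 at 2.50 ± 0.908 against 0.360 ± 0.0925. Baiap2l2 stood at 2.17 ± 0.644 against 0.0438 ± 0.0659, close to Etl4 in PS2APP myeloid cells although it was lowest of the 5 in non-Tg ones. Faxc remained a minor RNA, at 0.422 ± 0.348 against 0.0748 ± 0.0534.

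The contrast behind the choice was the myeloid minus the neuron log2 fold change in a joint fit of 18101 genes, which 17 genes (0.0939%) passed in the positive direction. The log2 difference was 5.16 ± 0.99 (SE) for Baiap2l2, 3.01 ± 0.58 for Faxc, 2.51 ± 0.36 for Etl4, 1.79 ± 0.32 for Myo1e and 1.19 ± 0.22 for Apbb2. Within the neuron libraries alone the log2 fold change was 0.39 ± 0.35 for Baiap2l2, 0.17 ± 0.17 for Myo1e and 0.12 ± 0.15 for Etl4, beside the negative values of Faxc and Apbb2. Without PS2APP neuron replicate 5 it was 0.23 for Baiap2l2, 0.18 for Myo1e, 0.027 for Etl4 and -0.065 for Apbb2. Just inside the threshold stood Sbk3 (6.23 ± 1.30) and Dkk2 (6.25 ± 1.33), and just outside it Rgsl1 (3.12 ± 0.69) and Isg15 (3.76 ± 0.85). The myeloid minus the astrocyte difference shares the myeloid libraries with that contrast and is likewise a description. It was 3.68 ± 1.12 for Baiap2l2, 2.24 ± 0.37 for Etl4, 2.06 ± 0.59 for Faxc, 1.97 ± 0.31 for Myo1e and 0.95 ± 0.23 for Apbb2.

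**Figure D2:**
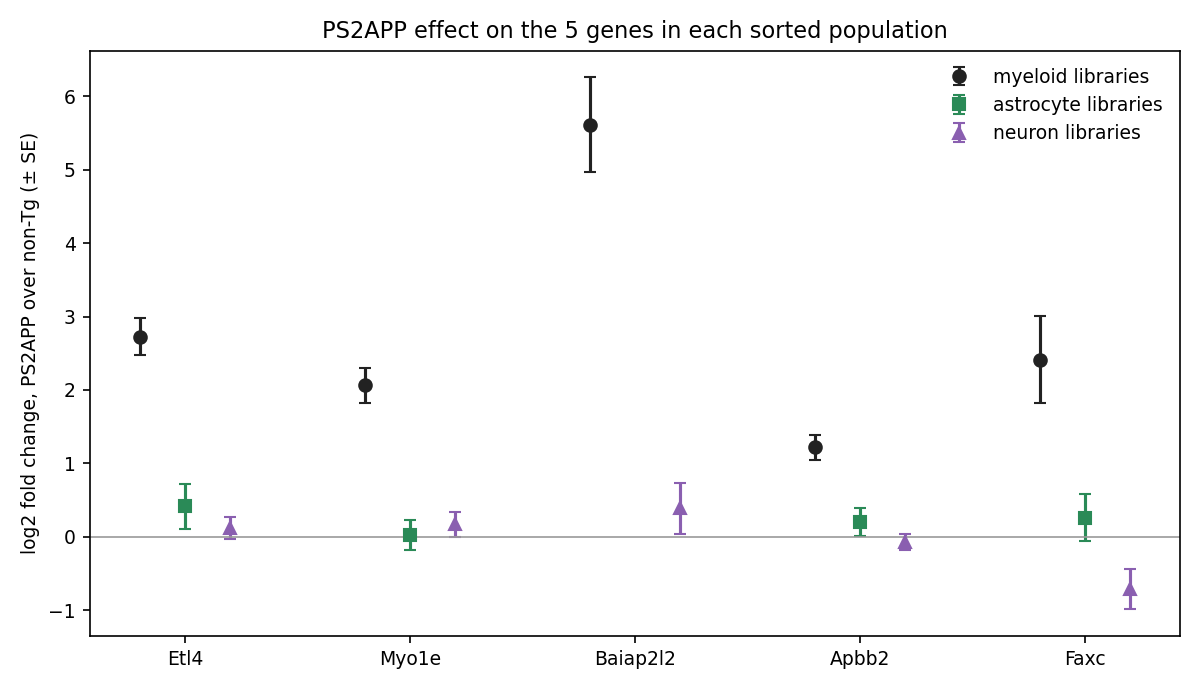
Log2 fold change of PS2APP over non-Tg with its SE (vertical axis) for each gene, in myeloid (circles), astrocyte (squares) and neuron libraries (triangles), 5 libraries a group. Myeloid values run from 1.22 for Apbb2 to 5.62 for Baiap2l2; astrocyte values lie between 0.028 and 0.42, with none for Baiap2l2, which was below the filter on low counts there, and neuron values between -0.71 and 0.39.

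In astrocytes, the sort not used to choose the genes, none of the 4 genes that could be tested was called in edgeR's quasi-likelihood test with Benjamini-Hochberg adjustment, nor by DESeq2. Their unadjusted p-values lay between 0.189 and 0.892. Over all 14043 genes 0.185% were called, and 17.2% had an unadjusted p under 0.05. Apbb2 was measured at 72.7, 78.0, 64.4, 69.2 and 98.2 CPM in PS2APP and 57.5, 78.8, 61.6, 84.5 and 53.6 CPM in non-Tg astrocytes, and the groups overlapped. Its log2 fold change was 0.20 ± 0.19 (SE, edgeR adjusted p = 0.609), with an interval of 2 SE to either side from -0.18 to 0.58, and 0.25 without PS2APP astrocyte replicate 3.

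Myo1e was measured at 57.7, 55.4, 46.1, 66.2 and 49.3 CPM in PS2APP and 61.7, 72.4, 39.3, 55.9 and 43.0 CPM in non-Tg astrocytes. It was thus well expressed by this sort in both genotypes. The log2 fold change was 0.028 ± 0.21 (SE, edgeR adjusted p = 0.96), with the same kind of interval from -0.38 to 0.44. It was 0.080 without PS2APP astrocyte replicate 3 and turned to -0.077 without non-Tg astrocyte replicate 3.

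Etl4 was measured at 31.4, 71.1, 35.3, 32.8 and 32.7 CPM in PS2APP and 33.0, 16.2, 26.2, 52.2 and 25.3 CPM in non-Tg astrocytes. PS2APP replicate 2 stood far above the other PS2APP libraries, and the groups overlapped. The log2 fold change was 0.42 ± 0.30 (SE, edgeR adjusted p = 0.495; -0.19 to 1.03), and leaving out 1 astrocyte library gave 0.13 to 0.69, with 0.46 without PS2APP replicate 3. Faxc was measured at 17.1, 8.84, 23.7, 14.5 and 19.3 CPM in PS2APP and 9.85, 17.8, 10.1, 18.4 and 14.2 CPM in non-Tg astrocytes. With these overlapping groups its log2 fold change was 0.26 ± 0.32 (SE, edgeR adjusted p = 0.701; -0.38 to 0.90), and 0.093 without PS2APP astrocyte replicate 3. Neuron markers summed to 1287 ± 539 CPM in PS2APP and 844 ± 126 CPM in non-Tg astrocyte libraries, and their part in the Etl4 and Faxc levels there was not tested.

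Baiap2l2 was too low in astrocytes for edgeR's filter. It was measured at 3.21, 0, 1.70, 1.43 and 5.13 CPM in PS2APP and 0, 0, 1.83, 1.05 and 0.241 CPM in non-Tg astrocytes, from 34 and 14 reads in all. The mean difference of 1.67 CPM did not pass a two-sided exact permutation test (p = 0.127), although without PS2APP astrocyte replicate 2 it was 2.24 CPM (two-sided exact permutation p = 0.0476). It was 1.82 CPM without PS2APP astrocyte replicate 3 (two-sided exact permutation p = 0.175). At this depth a change of Baiap2l2 in astrocytes was not resolved. Microglial markers summed to 129 ± 30.05 CPM in PS2APP and 67.3 ± 15.6 CPM in non-Tg astrocyte libraries (n = 5 each, SD), and the part of these cells in the Baiap2l2 reads was not tested.

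Etl4 and Faxc had their highest levels in neurons, and the mean neuron marker sum was higher in PS2APP myeloid libraries, with overlapping ranges. The 12 neuron markers summed to 352 ± 64.2 CPM in PS2APP and 250 ± 46.3 CPM in non-Tg myeloid libraries (range 265 to 417 and 210 to 320), with none at 0 and 10 of 11 tested markers positive, but 0 called by edgeR (permutation test of the sum, exact and two-sided, p = 0.0397; adjusted p = 0.131 over 33 tests). The 10 microglial markers summed to 8183 ± 1180 and 10782 ± 852 CPM in PS2APP and non-Tg myeloid libraries. Their ranges were 6422 to 9609 and 9678 to 11809 CPM. The 8 oligodendrocyte markers summed to 1323 ± 267 and 875 ± 189 CPM (range 1175 to 1797 and 717 to 1103). Neither pair of ranges overlapped (exact permutation p = 0.00794 for each, adjusted p = 0.0524). That unadjusted p is the smallest that 5 against 5 libraries allow, so here even full separation did not pass 0.05 after adjustment. Past edgeR's threshold, 2 of the 10 microglial markers were lower and 2 of 6 tested oligodendrocyte markers higher. Of all genes 1.5% were lower and 1.86% higher. Mitochondrial genes took 13.5 ± 2.97% and 8.75 ± 2.89% of counts in PS2APP and non-Tg myeloid libraries (exact permutation p = 0.0556, adjusted p = 0.167 over the 33 tests).

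To set a scale, the neuron marker sum of each myeloid library was taken as a share of that in the neuron libraries of its genotype, 12.2% on average in PS2APP and 9.49% in non-Tg mice, and the same share of a gene's neuron level was set beside its measured level. In astrocyte libraries the same share exceeded the measured Etl4 in all 10 libraries, so it is a rough scale and not an estimate of neuronal RNA. For Etl4 this share came to 27.5 CPM in PS2APP myeloid libraries, where 113 CPM were measured, and to 19.5 CPM in non-Tg libraries, where 17.96 CPM were measured. For Faxc it came to 3.90 CPM in PS2APP libraries, where 14.2 CPM were measured, and to 4.94 CPM in non-Tg libraries, where 2.80 CPM were measured. The PS2APP values are those by which both genes were chosen, and the part of neurons in them was not tested.

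**Figure D3:**
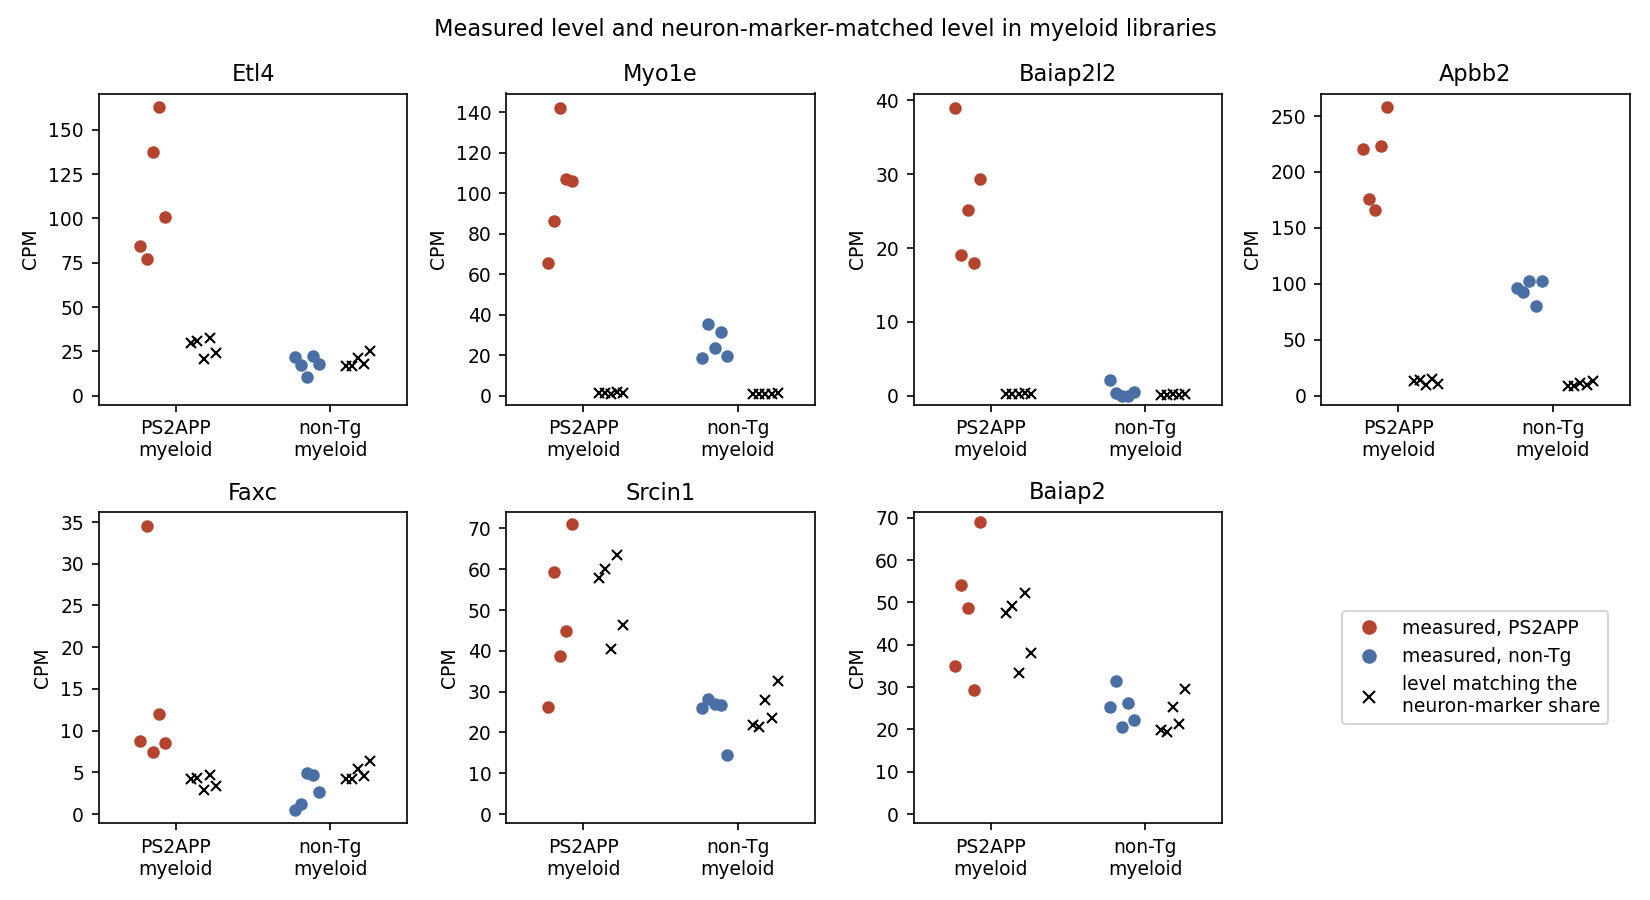
CPM (vertical axes, linear) of the 5 genes, Srcin1 and Baiap2 in each myeloid library (filled points) beside the level that matches the library's neuron marker share (crosses), PS2APP left of non-Tg. The points of Etl4 average 113 and 17.96 CPM in PS2APP and non-Tg libraries, beside crosses that average 27.5 and 19.5 CPM; the crosses are a rough scale and not an estimate of neuronal RNA.

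Of 124 genes in 12 lists of relatives, partners and actin regulators, the 5 left out, 111 were tested in myeloid libraries; 4 rose and 0 fell in edgeR's test. Of all 12274 genes 1.86% rose and 1.5% fell. At an unadjusted p under 0.05, 21 of the 111 were higher and 12 lower, beside 10.1% and 9.3% of all genes. DESeq2 called 10 higher and 1 lower, beside 3.9% and 2.92% of all genes to which it gave an adjusted p. The median log2 fold change of the list genes was 0.072, beside -0.0021 over all genes tested.

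Among the class I myosins no relative of Myo1e described here passed edgeR's test or was called by DESeq2. Myo1f, the other long-tailed class I myosin, stood at 486 ± 62.1 CPM in PS2APP and 422 ± 68.5 CPM in non-Tg myeloid libraries (log2 fold change 0.28 ± 0.15, edgeR adjusted p = 0.303). The short-tailed myosins had values on either side of 0, with Myo1d at -0.82 ± 0.33, Myo1c at -0.28 ± 0.18, Myo1g at -0.13 ± 0.23 and Myo1h at 0.50 ± 0.49. Myo1a was too low to be tested, at 0.944 and 0.334 CPM.

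Among the I-BAR genes, Baiap2, which encodes IRSp53, a link between Rac and actin regulators, rose in PS2APP myeloid libraries. It averaged 47.2 ± 15.7 CPM in PS2APP and 25.1 ± 4.19 CPM in non-Tg myeloid libraries (log2 fold change 0.99 ± 0.25, edgeR adjusted p = 0.034). The call was lost without PS2APP myeloid replicate 2, 3 or 5 or non-Tg myeloid replicate 3, 4 or 5 (0.82 to 0.997, edgeR adjusted p = 0.0621 to 0.107), and the neuron marker share of Baiap2 came to 44.1 CPM in PS2APP and 23.0 CPM in non-Tg libraries. Baiap2l1 had -1.02 ± 0.39, Mtss1 -0.13 ± 0.19 and Mtss2 0.70 ± 0.21 (edgeR adjusted p = 0.147, 0.746 and 0.0605). In astrocytes and neurons Baiap2 had log2 fold changes of 0.69 ± 0.29 and 0.56 ± 0.20, and Mtss2 0.66 ± 0.24 and 0.75 ± 0.21. Mtss1 had 0.40 ± 0.22 and 0.11 ± 0.13 there, and Baiap2l1 -0.19 ± 0.63 and -0.16 ± 0.27. None of these passed (edgeR adjusted p = 0.186 to 0.905).

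Srcin1, the paralog of Etl4, rose to 48.1 ± 17.6 CPM in PS2APP, against 24.5 ± 5.59 CPM in non-Tg myeloid libraries (log2 fold change 1.06 ± 0.28, edgeR adjusted p = 0.0388). Its neuron marker share came to 53.7 CPM in PS2APP and 25.5 CPM in non-Tg libraries, and the part of neurons in the rise of Srcin1 and Baiap2 was not tested. The call was kept without PS2APP or non-Tg myeloid replicate 1 and lost without any one of the other 8 libraries (0.89 to 1.13, edgeR adjusted p = 0.0556 to 0.114). Srcin1 also had positive log2 fold changes in the other sorts, at 1.04 ± 0.30 in astrocytes and 0.70 ± 0.23 in neurons. Neither passed edgeR's test (edgeR adjusted p = 0.13 and 0.186), though DESeq2 called Srcin1 in astrocytes. In neurons it averaged 440 ± 164 CPM in PS2APP and 268 ± 70.2 CPM in non-Tg mice. Of the Fe65 family, Apbb1 averaged 8.11 and 8.05 CPM in PS2APP and non-Tg myeloid libraries (0.095 ± 0.47) and Apbb3 12.01 and 19.5 CPM (-0.61 ± 0.39), and neither passed. The metaxins Mtx1 (-0.35 ± 0.39) and Mtx3 (-0.48 ± 0.27) did not pass, and Mtx2 was too low to be tested.

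**Figure D4:**
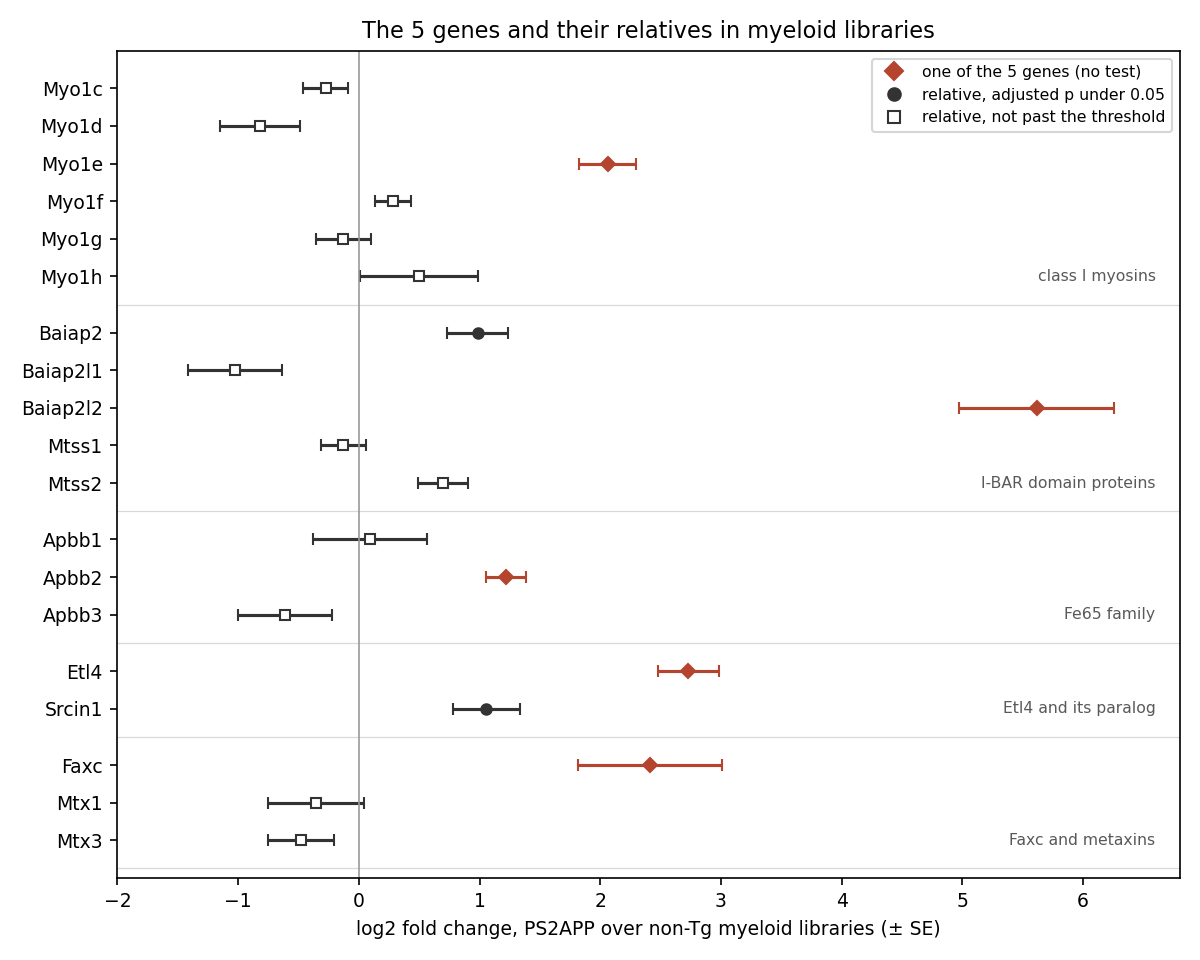
Log2 fold change of PS2APP over non-Tg myeloid libraries with its SE (horizontal axis) for the 5 genes (diamonds, not tested) and relatives that were tested, by family. Of the relatives Baiap2 and Srcin1 are drawn as past an adjusted p of 0.05, at 0.99 and 1.06.

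Of all genes tested in myeloid libraries, 1.86% were higher and 1.5% lower past edgeR's threshold. With DESeq2 the shares were 3.9% and 2.92%. None of 11 WAVE complex genes, 14 genes of the Arp2/3 complex and WASP, 18 tested genes of podosomes and the phagocytic cup, 6 endocytic partners of Myo1e or 12 other APP-binding adaptors passed edgeR's test in myeloid libraries. In those lists DESeq2 called 3 genes higher and 1 lower. Of 26 tested actin filament genes 2 rose in edgeR's test, and DESeq2 called 4 higher and 0 lower. At an unadjusted p under 0.05, 8 of the 26 were higher and 4 lower, beside 10.1% and 9.3% of all genes. Capg, a macrophage filament-capping protein, averaged 26.6 ± 7.30 CPM in PS2APP and 9.87 ± 3.55 CPM in the non-Tg ones (1.51 ± 0.35, edgeR adjusted p = 0.0218). Daam1, a formin of the Wnt pathway, averaged 113 ± 19.3 and 65.0 ± 5.24 CPM (0.88 ± 0.18, edgeR adjusted p = 0.00878). Daam1 stayed past the threshold in 10 of 10 leave-one-out fits, whereas Capg was lost without PS2APP myeloid replicate 3 or 5 or non-Tg myeloid replicate 4 or 5 (1.38 to 1.44, edgeR adjusted p = 0.0518 to 0.0754). With the mitochondrial share as a covariate none of the 4 list genes passed, at log2 fold changes of 1.13 for Baiap2, 0.90 for Srcin1, 1.29 for Capg and 0.66 for Daam1 (edgeR adjusted p = 0.252 to 0.433). With the neuron marker sum as a covariate, Baiap2 (1.15, edgeR adjusted p = 0.0585) and Srcin1 (1.26, edgeR adjusted p = 0.0761) did not pass, and Capg (1.83) and Daam1 (0.94) did. All 4 values were higher than without this covariate, though fewer genes passed in all, as given in the closing section. In the other sorts Daam1 had log2 fold changes of 0.66 ± 0.22 in astrocytes and 0.41 ± 0.16 in neurons. Neither passed (edgeR adjusted p = 0.162 and 0.189), and Capg was too low to be tested there.

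In astrocyte libraries 2 of 107 tested list genes rose and 0 fell in edgeR's test, beside 0.185% of all genes called in either direction. At an unadjusted p under 0.05, 30 were higher and 2 lower, beside 10.2% and 7.0% of all genes, and DESeq2 called 8 and 0, beside 1.63% and 0.685%. Both genes that rose are abundant in the myeloid sort. Abi3, a WAVE complex subunit, averaged 35.5 ± 12.8 CPM in PS2APP and 4.66 ± 3.17 CPM in non-Tg astrocytes (2.96 ± 0.42, edgeR adjusted p = 0.00504), and stood at 1395 and 1477 CPM in PS2APP and non-Tg myeloid libraries. Myo1f averaged 9.99 ± 3.97 and 1.61 ± 0.337 CPM (2.64 ± 0.47, edgeR adjusted p = 0.0204), a call lost without PS2APP astrocyte replicate 2 or 4 or non-Tg astrocyte replicate 2, 3, 4 or 5 (2.53 to 2.67, edgeR adjusted p = 0.0575 to 0.0888). The microglial marker sums given above were also higher in PS2APP astrocyte libraries, and their part in these 2 calls was not tested. In neuron libraries 0 of 112 list genes passed in edgeR, where 0.00623% of all 16064 genes were called. At an unadjusted p under 0.05, 27 were higher and 10 lower, beside 12.2% and 10.6% of all genes (22.9% in all). DESeq2 called 0 higher and 1 lower, beside 0.405% and 0.542%.

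The genes whose level over the 30 libraries was most like that of each member were ranked among 16401 genes by the root mean square difference of log2 CPM centred on each gene's mean. For Baiap2l2 they were the cation channel gene Trpm1 (1.12), the Wnt antagonist gene Dkk2 (1.25) and the growth factor gene Igf1 (1.26), and Apbb2 was ninth (1.45). For Myo1e they were Jup (0.56), Cryab (0.57) and Csf1 (0.58), the last encoding colony-stimulating factor 1. For Apbb2 they were Pfkl (0.33), Zbtb38 (0.36) and Arid5b (0.36). Genes nearest to Etl4 and Faxc had their highest level in neurons as these do, namely Stx1a (0.55), Pak6 (0.66) and Ppargc1b (0.72) for Etl4, and Atp1b1 (0.72), Ankrd45 (0.73) and Cep126 (0.77) for Faxc. Ankrd45 averaged 11.7 CPM in PS2APP and 1.39 CPM in non-Tg myeloid libraries, and 28.1 and 38.0 CPM in PS2APP and non-Tg neurons, an order of levels close to that of Faxc. The members were not each other's nearest genes: Myo1e ranked 13483rd from Etl4, and Etl4 1263rd from Faxc. As a scale, a gene flat over the libraries would stand at 1.85 from Baiap2l2, 1.27 from Myo1e and 0.55 from Apbb2. From Etl4 and from Faxc it would stand at 1.46.

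Reads of overlapping genes were also looked at, since no source used here gives the strand setting of the counting. Nsun7 shares 1203 bases with the end of Apbb2 and averaged 11.1 ± 4.34 CPM in PS2APP and 6.63 ± 2.70 CPM in non-Tg myeloid libraries. Gm17171 lies within the annotated span of Etl4 and averaged 1.12 and 1.36 CPM there. Pla2g6, which adjoins Baiap2l2 without sharing bases, averaged 32.5 ± 13.7 and 19.1 ± 4.56 CPM (0.85 ± 0.31, edgeR adjusted p = 0.134).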

How the data were processed

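One deposited table per library was used, 30 in all. Per the file headers, the authors counted uniquely aligned reads per gene model, and their deposited RPKM values carry size factors. The submitters' processing notes name GSNAP and GRCm38; no source used here gives the aligner's version or the annotation. RefSeq names on GRCm38.p6 matched 31049 of 36528 identifiers, or 96.7% of counts.

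Each sort was tested alone by the quasi-likelihood test of edgeR 4.0.16 under R 4.3.3, after filterByExpr and TMM scaling, at a Benjamini-Hochberg adjusted p of 0.05. Differences between sorts came from a joint fit of 30 libraries. A positive log2 fold change means higher in PS2APP, and its SE is the value over the root of its F statistic. Levels are CPM with TMM factors over all libraries, and likeness used log2 CPM with a prior count of 2. RPKM was used for comparing genes per length. Marker sums and Baiap2l2 in astrocytes went into exact permutation tests, two-sided, with scipy 1.17.1. The edgeR fit of each sort alone was run on simulated counts, while the joint fit and DESeq2 were not. DESeq2 1.42.0 and the other settings are compared in the closing section.

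Genotype and cell type labels gave the groups, and a replicate number is a name, not a pairing. Between libraries of 1 group chi-square over its degrees of freedom was at least 4.06, more than counting error alone gives on repeat sequencing of 1 library. This value cannot tell whether libraries came from the same animal. The members and lists were chosen with earlier results of these data known. Named genes are the members, all their measured relatives, up to 3 called genes in each direction per other list, the 3 nearest genes per member and 2 genes at each side of the threshold. Some genes and 1 list covered by this rule are not reported here. Counting intervals and limits cover counting error only.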

Additional observations from a re-analysis of the deposited data

Results flagged for a closer look

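In 4 of 30 gene and group combinations 1 library stood far from the other 4 of its group, by a gap of more than 0.71 of the range; chance flags about 1 in 20. Faxc was 34.5 CPM in PS2APP myeloid replicate 2, with 7.45 to 11.9 CPM in the remaining PS2APP myeloid libraries. Baiap2l2 was 2.06 CPM in non-Tg myeloid replicate 1, against 0 to 0.435 CPM. Etl4 was 71.1 CPM in PS2APP astrocyte replicate 2, against 31.4 to 35.3 CPM, and 269 CPM in non-Tg neuron replicate 1, against 180 to 205 CPM. None of these 4 libraries is the one of its sort farthest out on the first principal component.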

How the results depend on the processing

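No paired analysis was possible because the labels tie neither libraries of the 2 genotypes nor libraries of different sorts to each other. The joint fit behind the differences between sorts therefore treated all 30 libraries as independent. In the myeloid libraries the log2 fold changes of the 5 genes stayed positive under each alternative run. That of Faxc moved to 1.42 with the mitochondrial share as a covariate; the cause was not tested. In astrocyte libraries Etl4 turned to -0.33 with that covariate and Faxc to -0.082 with the neuron marker sum as a covariate, none of them past the threshold. With 1 library left out, Myo1e lay between -0.077 and 0.14 in astrocytes. Baiap2l2 lay between 5.22 and 6.88 in myeloid libraries, between 4.77 and 6.45 for myeloid minus neuron, between 3.04 and 4.97 for myeloid minus astrocyte, and between 0.961 and 2.24 CPM for the astrocyte difference. Counts of genes past the threshold depended on the settings. In myeloid libraries 412 became 939 with no filter, 837 with DESeq2, 798 in the fit of all libraries, 26 with the mitochondrial and 131 with the neuron covariate, and 105 to 652 with 1 library left out. In astrocyte libraries 26 became 514, 324, 295, 2 and 10 in the same order, and 8 to 125. In neuron libraries 1 became 15, 152 and 5 with no filter, DESeq2 and the fit of all libraries, and 1 to 11 with 1 library left out, 11 being without PS2APP neuron replicate 5. List genes that rose in myeloid libraries, 4 in the test reported, numbered 10 with DESeq2, 0 with the mitochondrial and 2 with the neuron covariate, and 1 to 5 with 1 library left out. Those that fell, 0 in the test reported, numbered 3 with no filter, 1 with DESeq2 and 1 in the fit of all libraries, and 0 to 1. Baiap2l2 rested on 12 reads in the non-Tg myeloid group and on 34 and 14 reads in the PS2APP and non-Tg astrocyte groups, which limits the precision of its values there.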
